A study of Mus musculus with 6 samples.

Results

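The Kruppel-like factors described here were 10 genes measured in cultured fibroblasts of the mouse dermis, which make the skin's connective tissue: Klf2, Klf3, Klf4, Klf5, Klf6, Klf7, Klf9, Klf10, Klf13 and Klf15. They were found by name, as every non-control probe that the array files assign to one of these genes, which gave 17 probes for 10 of the 22209 genes measured. All 17 probes passed the filter on dim signals. They were among 30577 probes kept of 41174 on the array, and none was saturated on any array.

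The cells came from C57BL/6 mice, were grown in DMEM with 10% FBS and received IL-1, an inflammatory cytokine, at 20 ng/ml for 1 h, 2 h or 4 h. Their RNA was set against RNA of untreated cells (0 h) on 6 Agilent arrays with 2 colours. Each time point had 2 arrays with the dyes exchanged, and these were counted as 1 sample, so that 3 treated samples were set against untreated RNA. The sex, age and passage of the cells are not given in the labels. No untreated cells of 1 h, 2 h or 4 h were analysed here, so IL-1 and time in culture cannot be told apart.

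Kruppel-like factors are transcription factors that bind GC-rich and CACCC sequences through zinc fingers at their carboxy terminus. Their amino termini differ and sort them into groups. Klf2, Klf4, Klf5, Klf6 and Klf7 belong to a group of mostly activators, Klf3 recruits the corepressor CtBP, Klf9, Klf10 and Klf13 bind the corepressor Sin3, and Klf15 stands outside these groups. Several of them are rapidly induced by serum, growth factors or cytokines, and Klf2 and Klf4 are known as regulators of inflammatory genes in endothelial cells and macrophages.

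Values are log2 ratios of IL-1 over untreated, signed by the dyes that the labels name. The authors' value table carries each array's ratios under its partner, the array with the dyes exchanged. If the scanner files rather than that table were exchanged, every sign below would turn. The orientation with the IL-1 RNA in Cy5 is given first at each time, and the one with the IL-1 RNA in Cy3 second. The distance of either orientation from their mean had a median of 0.0620 and a 95th percentile of 0.197 over all probes and times, and it is a technical error only. In bulk RNA, fewer cells of a type and less RNA per cell cannot be told apart.

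Klf10 was the one Kruppel-like factor with a change of 2-fold or more at a single time point, and it was high at 1 h only. The brightest Klf2 probe was higher after IL-1 at every time and the other Klf2 probe was lower at every time, by similar amounts. Brightest probes of Klf3, Klf4 and Klf13 were slightly lower, and Klf5 was higher at 1 h and 2 h but not at 4 h. The brightest probes of Klf6 and Klf7 were at -0.23 and -0.20 at 4 h, and that of Klf9 at 0.17 at 1 h. Their means over all times did not pass the test given below, unlike those of Klf3, Klf4 and Klf13. Klf15 moved little on its brightest probe. The plot of ratios by time shows every probe of the family.

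**Figure D1:**
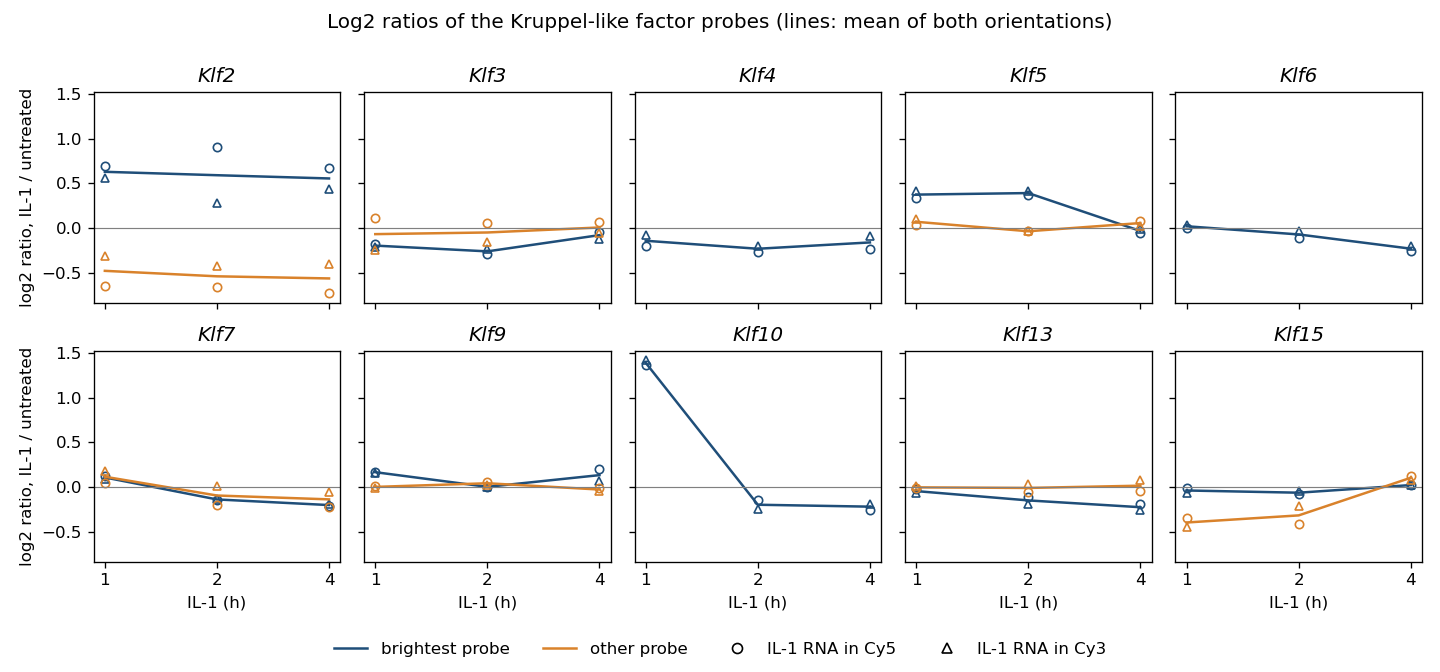
Log2 ratio of IL-1 over untreated (vertical axis) against hours of IL-1 (horizontal axis) for the 17 probes of the 10 Kruppel-like factors. Circles are arrays with the IL-1 RNA in Cy5 and triangles arrays with it in Cy3, lines join the means of both, and colours separate the brightest probe from the other probe of a gene. Klf10 stands at 1.37 and 1.42 at 1 h and below 0 afterwards, and the Klf2 probes lie on opposite sides of 0 at all 3 times.

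The first question was whether any Kruppel-like factor differed by 2-fold at 1 h, 2 h or 4 h. Klf10, also known as the TGF-beta-inducible early gene, is a repressor first described as an early response to TGF-beta. Its probe lies at chr15:38299726-38299785 in the files' coordinates, for which the sources used here name no genome build. Its log2 ratios were 1.37 and 1.42 after 1 h, -0.15 and -0.25 after 2 h, and -0.25 and -0.19 after 4 h. Both orientations at 1 h were thus high and those of both later times were slightly below 0.

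The mean at 1 h was 1.39 ± 0.026 (distance of either orientation, 1 sample), or 2.63-fold, the 36th highest value of 30577 probes at that time. A log2 ratio of at least 1 in both orientations was reached by 0.17% of all probes at 1 h, 52 in number, and by 1 of the 17 Kruppel-like factor probes, that of Klf10. Single times were not tested, since each had 1 treated RNA.

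Klf10 levels after IL-1, as log2 normalised intensity, were highest at 1 h and lowest at 2 h in both orientations. After IL-1 they were 10.75 and 10.81 after 1 h, 8.98 and 9.04 after 2 h, and 9.12 and 9.21 after 4 h. The 6 untreated channels had a lowest value of 9.13, a median of 9.38 and a highest of 9.40. The 1 h values lay above all untreated values, the 2 h values below all of them, and the 4 h values reached into the lower end of the untreated range. The untreated channels of the 2 h arrays, at 9.13 and 9.29, were themselves the lowest of the untreated ones.

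Between 1 h and 2 h the Klf10 ratio changed by -1.52 and -1.67 in the 2 orientations, a mean of 3.01-fold downward. Between 2 h and 4 h the change was -0.10 and 0.06, within the distance that orientations usually show. From 1 h to 4 h the change was -1.62 and -1.61. A difference of at least 2-fold between 1 h and 4 h, higher at 1 h, was shared by 0.0687% of all probes (21 of 30577) and by 1 of the 17 probes of the family, again Klf10. These differences between times assume that 1 untreated RNA served all arrays, which the labels do not state.

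No Kruppel-like factor probe was 2-fold lower at 1 h, where 0.00654% of all probes were. At 2 h the share of probes 2-fold higher was 0.134% and at 4 h it was 0.111%, with 0 of 17 Kruppel-like factor probes at either time. The Klf10 ratio at 1 h ranged from 1.25 to 1.48 over other background corrections and normalisations. With median centring per array, and no loess, the 2 orientations were at 1.98 and 0.52, so that 0 probes of the family passed the 2-fold rule there.

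The measure of likeness to Klf10 was the Euclidean distance over the 6 log2 ratios, among 15463 other genes with a symbol, each by its brightest probe. Egr2, a zinc finger transcription factor of the early growth response family, was nearest at 0.52. It had means of 1.28 at 1 h, 0.05 at 2 h and -0.46 at 4 h. Next came the helix-loop-helix repressor Bhlhe40 at a distance of 0.62, Egr3 at 0.71, the histone demethylase gene Kdm6b at 0.80 and the stress-induced factor Atf3 at 1.01.

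Each of these 5 genes was highest at 1 h and between -0.46 and -0.03 at 4 h. At 2 h Atf3 was still at 0.44 and Kdm6b at 0.25, against -0.20 for Klf10. The distances describe these arrays, with arrays of a time point sharing their RNA, and the plot of Klf10 with its nearest genes shows the time means.

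**Figure D2:**
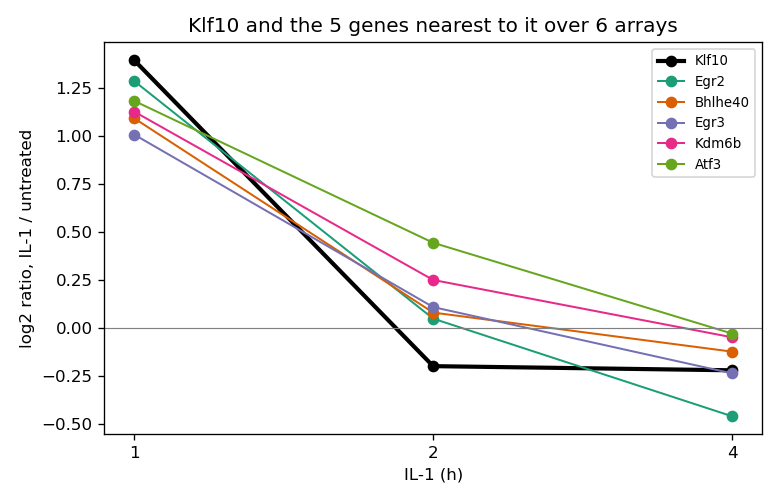
Mean log2 ratio of IL-1 over untreated (vertical axis) against hours of IL-1 (horizontal axis) for Klf10, in black, and the 5 genes with the smallest distance to it over 6 arrays. Each point is the mean of both dye orientations of 1 time point. All 6 genes are above 1 at 1 h, and Klf10 is the one below 0 at 2 h.

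The second comparison asked which probes differed from the untreated RNA over the 3 times together. The mean response was tested with limma against 0 with n = 3 time points, and p-values were adjusted over all 30577 probes. Each standard error (SE) of a mean or slope is limma's moderated one. It draws on a variance shared across probes as well as on the probe's own times. Of the 17 Kruppel-like factor probes 1 rose, where 10.5% of all probes did, and 4 fell, where 11.4% of all probes did, so that 5 were called where 21.9% of all probes were. The probe that rose was the brightest Klf2 probe. The probes that fell were the other Klf2 probe and the brightest probes of Klf3, Klf4 and Klf13. With the replicate number, which marks dye orientation, as a block over 6 arrays, 3 rose and 4 fell, the further risers being the brightest probes of Klf5 and Klf9. That fit counts both arrays of 1 treated RNA, and the same means over the 3 averaged samples did not pass.

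By brightest probe, 1 of the 10 genes rose and 3 fell, with a median mean response of -0.05, beside 0.00367 over all 22209 genes, of which 10.8% rose and 11.1% fell. The share of calls in each direction depended on the normalisation. It was 3214 up and 3472 down with loess, and 1680 up and 7452 down with median centring, under which 1 Kruppel-like factor probe rose and 6 fell, Klf6 and Klf7 being added. Whether each time point was a culture of its own is not stated. The p-values rest on the spread between these samples, moderated by a variance shared across probes, and leave out the spread of the untreated RNA. Since the samples are different times, that spread includes any change with time. A probe that differs between times, such as that of Klf10, can therefore have a wide SE although its orientations lie close together.

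Klf2, a shear stress-induced factor that restrains inflammatory gene expression in endothelial cells, was the member with the highest mean response and also the one with the lowest. Its brightest probe, A_52_P442031, lies at chr8:71468754-71468813 and had a mean log2 signal of 13.51. Log2 ratios were 0.70 and 0.56 after 1 h, 0.90 and 0.28 after 2 h, and 0.67 and 0.44 after 4 h. All 6 arrays were above 0, and the 2 orientations at 2 h were the furthest apart.

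The mean response of this probe was 0.59 ± 0.025 (SE, n = 3), or 1.51-fold, at an adjusted p of 0.000312 (limma). Time means of 0.63, 0.59 and 0.55 showed no slope that passed the test (adjusted p = 0.72). Levels after IL-1 were 13.60 and 13.74 after 1 h, 14.36 and 13.95 after 2 h, and 13.48 and 13.71 after 4 h. Untreated levels had a lowest value of 12.82, a median of 13.22 and a highest of 13.67. The level ranges overlapped across arrays, while on each array the IL-1 channel was the higher one.

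The other Klf2 probe, A_51_P144264, lies at chr8:71470028-71470087, its start 1274 bases from that of the first, and had a mean log2 signal of 9.76. Log2 ratios were -0.65 and -0.32 after 1 h, -0.66 and -0.42 after 2 h, and -0.73 and -0.40 after 4 h. All 6 arrays were below 0. The mean response was -0.53 ± 0.026 (SE, n = 3), 1.44-fold lower, at an adjusted p of 0.000425 (limma), and the slope did not pass the test (adjusted p = 0.678).

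Levels of this second probe were 9.36 and 9.63 after 1 h of IL-1, 9.53 and 9.59 after 2 h, and 9.31 and 9.55 after 4 h. Its untreated levels had a lowest value of 9.94, a median of 10.01 and a highest of 10.19, so the groups did not overlap. Both Klf2 probes were well above background on all 6 arrays in both channels. The direction of Klf2 mRNA after IL-1 is therefore not settled by these arrays, and which of the probes follows the transcript was not tested.

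**Figure D3:**
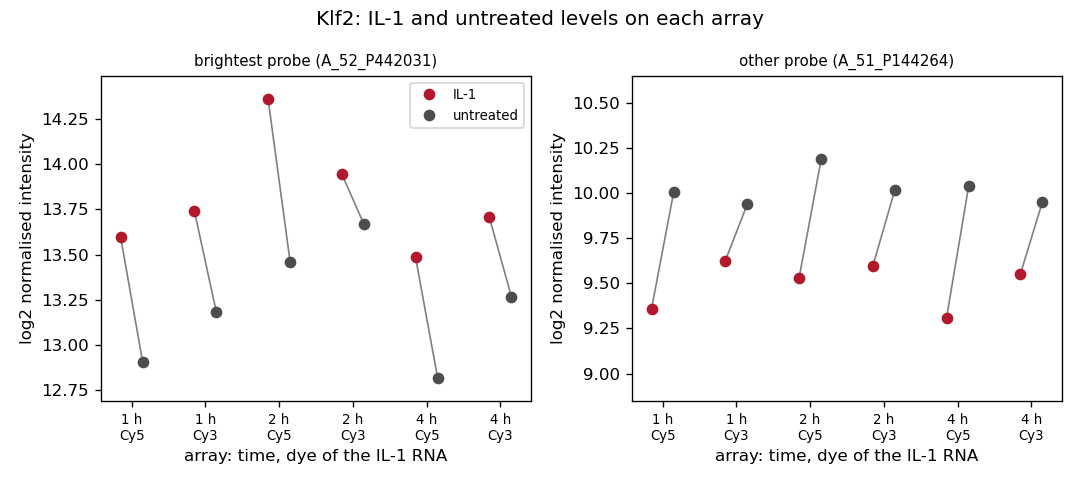
Log2 normalised intensity (vertical axes) of the Klf2 probes on each of the 6 arrays (horizontal axis: hours of IL-1 and the dye of the IL-1 RNA). Red points are IL-1 channels, grey points the untreated channels of the same array, and lines join the channels of an array. The IL-1 point is the higher one on every array for the brightest probe and the lower one on every array for the other probe.

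The brightest Klf2 probe kept its call in 14 of 14 alternatives, with means of 0.41 to 0.76, and the other probe in 13 of 13, with means of -0.68 to -0.38. Among 918 genes with at least 2 called probes, 76 had calls in opposite directions, or 8.28%. Of 6224 genes with at least 2 kept probes, Klf2 was the only one with one mean response of at least 0.5 and another of at most -0.5, or 0.0161%. The bound of 0.5 was chosen after the Klf2 values were seen.

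By the same distance, the genes nearest to the brightest Klf2 probe were the bicarbonate transporter gene Slc4a7 at 0.25, the chemokine gene Ccl9 at 0.35 and the adhesion receptor gene Pvr at 0.37. The IL-1 receptor gene Il1r1 followed at 0.38 and Nfkbib, which encodes the inhibitor IkB-beta, at 0.40. Il1r1 had time means of 0.45, 0.59 and 0.58. These 5 genes had mean responses of 0.50 to 0.60, each past the limma threshold. Like the Klf2 probe, each had the higher ratio with the IL-1 RNA in Cy5 at every time. The distance takes in this dye difference as well as the response to IL-1.

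Klf4, a close relative of Klf2, is needed for the barrier of the epidermis and is one of the factors used to reprogram fibroblasts. It has 1 probe, at chr4:55443841-55443900, with a mean log2 signal of 11.26. Log2 ratios were -0.21 and -0.08 after 1 h, -0.27 and -0.20 after 2 h, and -0.24 and -0.09 after 4 h, so all 6 arrays were below 0. The mean response was -0.18 ± 0.027 (SE, n = 3), 1.13-fold lower, at an adjusted p of 0.00685 (limma). The call was lost without the 2 h sample (adjusted p = 0.0603) and with the scanner's processed signals (adjusted p = 0.0639), and with median centring the mean was -0.33 (adjusted p = 0.000429).

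Klf4 levels after IL-1 were 11.19 to 11.27 at 1 h, 11.00 to 11.09 at 2 h and 11.22 to 11.25 at 4 h. Untreated levels had a lowest value of 11.27, a median of 11.33 and a highest of 11.49. The 2 h and 4 h values lay below all untreated values, and the higher 1 h value met the lowest untreated one.

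RefSeq promoter windows on GRCm38.p6 were given for 8 of the 10 genes, all but Klf5 and Klf10. Those of Klf2 and Klf4 are shown because these close relatives were called in opposite directions by their brightest probes. The other Klf2 probe fell, as Klf4 did, so opposite directions of these genes are not settled. Each run holds the 250 bases before the annotated start, 5′ to 3′ on the gene's strand, for Klf2 at chr8:72318812-72319061 (plus strand) and for Klf4 at chr4:55532476-55532725 (minus strand). Capitals mark GC boxes (GGGCGG on either strand) in both, and in Klf2 also the MEF2 site CTAAATTTAG and a CACCC box, here as GGGTG. The GC box and the CACCC box are letters that Kruppel-like factors and their SP relatives can bind.
Klf2: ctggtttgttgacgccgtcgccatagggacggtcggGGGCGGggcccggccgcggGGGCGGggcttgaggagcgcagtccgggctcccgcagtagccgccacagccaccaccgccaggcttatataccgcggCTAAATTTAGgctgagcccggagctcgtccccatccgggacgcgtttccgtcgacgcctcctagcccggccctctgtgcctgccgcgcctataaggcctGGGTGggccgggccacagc
Klf4: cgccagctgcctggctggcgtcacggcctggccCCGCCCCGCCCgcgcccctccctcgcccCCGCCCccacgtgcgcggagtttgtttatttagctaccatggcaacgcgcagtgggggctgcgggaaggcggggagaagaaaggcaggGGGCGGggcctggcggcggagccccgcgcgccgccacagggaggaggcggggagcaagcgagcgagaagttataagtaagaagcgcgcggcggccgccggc

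The MEF2 match of Klf2 lies 118 to 109 bases before the start, and Klf2 was the 1 of the 8 members with such a match, where 0.508% of 32851 promoter windows have one. This is the kind of site through which the kinase Mapk7 and MEF2 factors are known to drive Klf2 in endothelial cells. A GC box occurred in 7 of the 8 windows, with 2 copies in Klf2, 4 in Klf4, of which 2 overlap at their ends, and 6 in Klf3, and in 32.7% of all windows. A CACCC box (CACCC on either strand) occurred in 6 of 8, against 52% of all windows, and Klf4 had none.

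The share of G and C was 71.2% for Klf2 and 74.0% for Klf4, and over the 8 windows it ran from 59.2% for Klf7 to 78.4% for Klf3, against a median of 52.4% over all windows. The kappaB motif was in 0 of 8 windows, against 3.9% of all windows, and the serum response CArG motif in 0 of 8, against 1.47%. The cAMP response motif TGACGTCA was in 0 of 8, against 1.55%, and a CCAAT box (CCAAT) in 4 of 8, against 33.8%. All motifs were searched on both strands, matches are descriptions of letters, and no match says only that the letters are not in this window.

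Klf5, which promotes proliferation of epithelial and smooth muscle cells, was higher at the first 2 times. Its brightest probe, A_51_P507290, had log2 ratios of 0.34 and 0.41 after 1 h, 0.37 and 0.41 after 2 h, and -0.06 and -0.01 after 4 h. Means were 0.37 (1.30-fold) at 1 h and 0.39 (1.31-fold) at 2 h, in the top 329 of 30577 probes at both times, and -0.03 at 4 h. Between 2 h and 4 h the ratio changed by -0.43 and -0.42 in the 2 orientations, or 1.34-fold downward.

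Klf5 levels after IL-1 were 8.53 and 8.52 at 1 h and 8.34 and 8.45 at 2 h, above the untreated channels, whose lowest value was 7.97, median 8.11 and highest 8.19. At 4 h they were 8.07 and 8.10, inside the untreated range. The mean response was 0.24 ± 0.081 (SE, n = 3) and did not pass the test (adjusted p = 0.0818), nor did the slope (adjusted p = 0.261). Without the 4 h sample the mean was 0.38 at an adjusted p of 0.00222, without replicate 1 it was 0.27 at 0.0428, and with the replicate block, over 6 arrays of 3 treated RNAs, it passed at 0.0275. The fit without the 4 h sample leaves out the time at which Klf5 was not higher, and has 1 residual degree of freedom.

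The file gives an interval of 9733 bases for the brightest Klf5 probe on chromosome 14. The other Klf5 probe, A_52_P54463, has 60 bases within that interval. It was well above background on 2 of 6 arrays in either channel, with a mean response of 0.03 ± 0.029 (SE, n = 3).

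Klf6 and Klf7, activators of the same group known from tissue injury and from axon growth, had their lowest ratios at 4 h. Klf6 had log2 ratios of 0.00 and 0.04 after 1 h, -0.11 and -0.04 after 2 h, and -0.26 and -0.21 after 4 h. Its mean response was -0.10 ± 0.047 (SE, n = 3; adjusted p = 0.211) and its slope per doubling of time -0.13 ± 0.029 (adjusted p = 0.186), so that neither passed. The Klf6 mean passed without the 1 h sample at -0.15 (adjusted p = 0.0471) and with median centring at -0.24 (adjusted p = 0.00353).

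Klf7 was measured by probes whose starts lie 45206 bases apart, and their time means followed the same course. The brightest had 0.12 and 0.09 after 1 h, -0.15 and -0.13 after 2 h, and -0.21 and -0.19 after 4 h, and the other had time means of 0.12, -0.09 and -0.14. The largest difference between these probes in the mean of a time was 0.064. Orientations of the other probe lay further apart, at -0.20 and 0.01 after 2 h and at -0.22 and -0.06 after 4 h. Levels of the brightest probe after IL-1 were 9.49 and 9.43 after 1 h, 9.19 and 9.10 after 2 h, and 9.16 and 9.13 after 4 h, against untreated levels of 9.23 to 9.37. They were above the untreated range at 1 h and below it at 2 h and 4 h.

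Neither the Klf7 mean (-0.08, adjusted p = 0.402) nor its slope (-0.15, adjusted p = 0.169) passed. The mean passed without the 1 h sample at -0.17 (adjusted p = 0.0133) and with median centring at -0.20 (adjusted p = 0.0233).

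Among repressors, Klf3, which binds CtBP and acts in red blood cell and fat cell development, fell slightly on its brightest probe. That probe had ratios of -0.18 and -0.22 after 1 h, -0.29 and -0.24 after 2 h, and -0.04 and -0.12 after 4 h. The mean response was -0.18 ± 0.037 (SE, n = 3) at an adjusted p of 0.0192, and the call was lost without the 2 h sample (adjusted p = 0.117). The other Klf3 probe had ratios of 0.11 and -0.25 at 1 h, so its sign went with the dye, and a mean of -0.04 (adjusted p = 0.354), which passed at -0.15 (adjusted p = 0.0363) without replicate 1.

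Klf13, known as a regulator of the chemokine gene Ccl5 in T cells, also had its lowest ratios at 4 h. Its brightest probe had -0.02 and -0.07 after 1 h, -0.11 and -0.19 after 2 h, and -0.19 and -0.26 after 4 h. The mean response of -0.14 ± 0.037 (SE, n = 3) passed narrowly (adjusted p = 0.0409). The call held in 9 of 14 alternatives. It was lost without replicate 2 (adjusted p = 0.0606), without the 2 h sample (adjusted p = 0.183), without the 4 h sample (adjusted p = 0.111), with an offset of 16 (adjusted p = 0.0871) and with the processed signals (adjusted p = 0.144). With median centring the mean was -0.27 (adjusted p = 0.00101). The other Klf13 probe was at 0.00 ± 0.023 (SE, n = 3; adjusted p = 0.991).

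Klf9, a factor induced by glucocorticoids and thyroid hormone, had 0.17 and 0.16 after 1 h, 0.00 and 0.00 after 2 h, and 0.20 and 0.07 after 4 h on its brightest probe. The mean response of 0.10 ± 0.036 (SE, n = 3) did not pass (adjusted p = 0.0987), but did with the replicate block over 6 arrays of 3 treated RNAs (adjusted p = 0.0431). The other Klf9 probe was at 0.01 (adjusted p = 0.913).

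Klf15, another glucocorticoid-induced gene and a regulator of energy metabolism, was at -0.03 ± 0.026 (SE, n = 3; adjusted p = 0.539) on its brightest probe. The other probe, A_52_P64383, had ratios of -0.34 and -0.45 after 1 h, -0.42 and -0.22 after 2 h, and 0.12 and 0.08 after 4 h. Its mean of -0.20 did not pass (adjusted p = 0.168), and without the 4 h sample it was -0.36 at an adjusted p of 0.00381. Both Klf15 probes were dim, with mean log2 signals of 6.53 and 6.47, and the size of the second probe's ratio followed the background correction. Its 1 h value was -0.40 as given, -0.70 with a smaller offset and -1.62 with the scanner's processed signals.

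**Figure D4:**
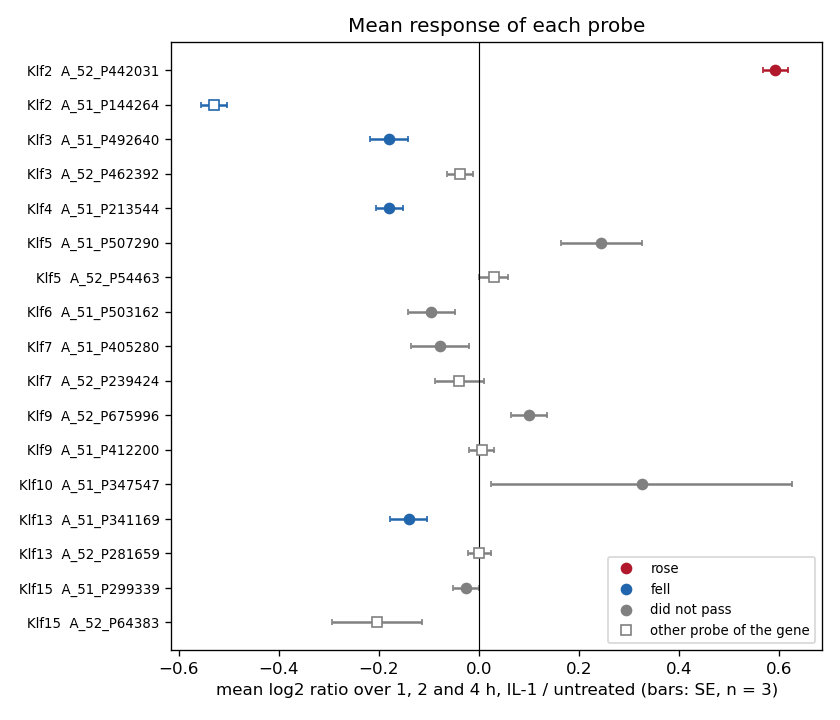
Mean log2 ratio of IL-1 over untreated across 1 h, 2 h and 4 h (horizontal axis) for each of the 17 probes (vertical axis). Bars are limma's moderated standard errors over 3 time points, which draw on a variance shared across probes. Filled circles are the brightest probe of a gene, open squares the other probe, and colour the call at an adjusted p under 0.05. The Klf2 probes stand apart at 0.59 and -0.53. Klf10 has the widest bar, its means at 1 h, 2 h and 4 h being 1.39, -0.20 and -0.22.

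The third comparison asked whether ratios followed a straight line in log2 time. By limma 0 of 17 Kruppel-like factor probes had a rising slope at an adjusted p under 0.05, where 0.196% of all probes did, and 0 had a falling one, where 0.242% of all probes did. At an unadjusted p under 0.05 there were 7 of 17, where 10.4% of all probes were below it. These were the brightest probes of Klf5, Klf6, Klf10 and Klf13, both Klf7 probes and the dimmer Klf15 probe, which was the one with a rising slope.

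Klf10 had a slope of -0.81 ± 0.17 per doubling of time (SE, n = 3; adjusted p = 0.158), although most of its change lay between 1 h and 2 h. Its mean response over the 3 times was 0.32 ± 0.30 (SE, n = 3; adjusted p = 0.51), and without the 1 h sample it was -0.21 at an adjusted p of 0.00457. A slope with 1 residual degree of freedom passed for other members under some settings. With median centring Klf5 and Klf10 passed downward and the dimmer Klf15 probe upward. With no background correction Klf6, Klf7 and Klf10 passed downward.

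Medians of the brightest probes of the 10 genes were 0.06 at 1 h, -0.11 at 2 h and -0.12 at 4 h, while those of all probes were within 0.00228 of 0. At 1 h 6 genes were above 0 and 4 below, and at 2 h and 4 h 3 were above and 7 below. The median describes the 10 genes on these arrays and was not tested.

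Other genes of the pathway came from lists. Of 16 further genes of the Kruppel-like and SP families 11 were measured, of which 1 rose and 2 fell, where 10.8% of all genes rose and 11.1% fell, with a median of -0.01 beside 0.00367 over all genes. The bone factor gene Sp7 rose by 0.19 (adjusted p = 0.00403), and Klf12, a CtBP-binding repressor (-0.11, adjusted p = 0.0421), and Sp1, a ubiquitous activator (-0.09, adjusted p = 0.0449), fell. Klf11, a close relative of Klf10, was at 0.03 (adjusted p = 0.476).

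All 16 cofactors and upstream regulators were measured, of which 2 rose and 4 fell, beside the same 10.8% and 11.1% of all genes, with a median of -0.04. Map2k5, the kinase that activates Mapk7, rose by 0.13 (adjusted p = 0.0232) and the corepressor gene Sin3a by 0.11 (adjusted p = 0.0221). The deacetylase gene Hdac2 fell by 0.27 (adjusted p = 0.00168), as did Wwp1, a ubiquitin ligase known to act on Klf2 and Klf5, at -0.23 (adjusted p = 0.00338), and the acetyltransferase gene Ep300 at -0.13 (adjusted p = 0.0107). Mef2a, Mef2c and Mef2d were each at -0.05 and did not pass, nor did Mapk7 at 0.07 (adjusted p = 0.0784).

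Of 10 genes known as targets of Kruppel-like factors in other cells 3 rose and 0 fell, again beside 10.8% and 11.1% of all genes, with a median of 0.09. The growth factor genes Pdgfa and Tgfb1 rose by 0.37 (adjusted p = 0.00364) and 0.29 (adjusted p = 0.00115), and the cyclin gene Ccnd1 by 0.09 (adjusted p = 0.0455). Smad7, an inhibitor of TGF-beta signalling that Klf10 represses in other cells, had time means of 0.39, -0.22 and -0.05 and did not pass (adjusted p = 0.833). The endothelial targets Nos3 (0.09, adjusted p = 0.212) and Thbd (0.03, adjusted p = 0.73) did not pass either.

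The labelled cell type was checked against its markers. All 10 fibroblast markers were well above background in all 12 channels, among them Col1a1, Col1a2 and Vim, which were each saturated in 6 of these channels. The same held for 4 of 4 measured keratinocyte markers, 5 of 5 leukocyte markers, 1 of 2 endothelial, 1 of 2 melanocyte and 1 of 1 adipocyte markers. In a single channel of an array 0 to 2.55% of negative control spots in Cy5 and 6.05 to 14.3% in Cy3 also carried that flag. How many carried it in all 12 channels was not counted. Signals of different probes cannot be compared, so the presence of other cells was not tested. Of other cells' markers, Cdh1 of keratinocytes and Pecam1 and Cdh5 of endothelial cells did not pass the signal filter, as was the case for Tyr of melanocytes and Adipoq of adipocytes. Krt10 fell by 0.20 and Csf1r rose by 0.13, beside 1 rise (Dcn, 0.46) and 1 fall (Col3a1, -0.25) among fibroblast markers, and the part of these in the Kruppel-like factor results was not tested.

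The median signal of an array lay between 124.3 and 137.7 for Cy5 and between 121.8 and 127.5 for Cy3. Negative control spots had medians of 68.4 to 74.1 in Cy5 and 96.3 to 104.4 in Cy3. The number of arrays limits the precision of every value.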

How the data were processed

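Total RNA of IL-1-treated and untreated cells was compared on Agilent arrays with 2 colours. Per the file headers, Agilent Feature Extraction 7.5.1 read the spots, and the deposited intensity values used here are uncorrected spot means with local background medians. The deposited processed intensities had background and dye corrections, per the file headers. The authors' value table holds log2 ratios, and every column equals the processed log2 ratios of the partner array (100% of spots within 0.001), with no further centring. Column medians for replicates 1 and 2 were -0.026 and 0.0261 for 1 h, -0.0309 and 0.0311 for 2 h, and -0.0325 and 0.0283 for 4 h. The direction was taken from the labelled dyes.

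Intensities were corrected by normexp (offset 50) and loess-normalised within arrays (limma 3.58.1, R 4.3.3), with control spots at weight 0. Outlier flags were left out, spots of a probe were averaged, and ratios were turned to IL-1 over untreated. Levels per channel were scaled between arrays by Aquantile. The filter asked for a signal well above background throughout at least 1 of 4 conditions, and 57 probes with missing values were dropped. The 2 arrays of a time point were averaged. The mean response, with 2 residual degrees of freedom, and a slope on log2 hours, with 1, were fitted with limma and called at a Benjamini-Hochberg adjusted p under 0.05, two-sided. Names of 22072 probes came through RefSeq accessions (GRCm38.p6), and others from the files. The brightest probe led each gene's account.

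Members and lists were chosen with earlier results of these data known, so they are no independent support for any pattern. Every member is named. Listed genes past the threshold are named by size, up to 3 in each direction, and other listed genes were named after their values were seen. Same-numbered arrays deviated together from their time means (r of 0.843, 0.768 and 0.765 across probes), which mirrors one dye effect per probe, since the labels tie the numbers to dye orientation. The fits were run on simulated ratios with known changes and independent noise scaled to the differences between orientations. That noise is technical only, so the run checks the code and not the error rates of the calls here. Alternatives were another offset, no correction, the scanner's processed signals, median centring, other filters, the brightest probe per gene, a replicate block, another variance model, and leaving out replicates or times. A mean fitted without a time has 1 residual degree of freedom, as the slope has. Its p-value therefore draws heavily on the variance shared across probes.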

Additional observations from a re-analysis of the deposited data

Results flagged for a closer look

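Klf10 stood out because its ratio had opposite signs at 1 h and at 4 h in both dye orientations. Each of these values was further from 0 than the 95th percentile, at its own time and over all probes, of the distance of either orientation from their mean, which was 0.207 at 1 h and 0.187 at 4 h. The mean log2 ratio was 1.39 at 1 h and -0.22 at 4 h. The second orientation at 4 h, at -0.188, was barely past its bound. With median centring the orientations at 4 h were at 0.27 and -0.89, so the opposite signs did not hold in both there. The difference between these times was not tested other than by the slope of -0.81, which did not pass (limma, adjusted p = 0.158). A slope of nearly the same size passed by limma with no background correction (-0.78, adjusted p = 0.0211) and with median centring (-0.78, adjusted p = 1.26e-60). These fits have 1 residual degree of freedom, so their p-values draw on a variance shared across probes. The very small p-value with median centring is therefore no measure of the spread of Klf10 between samples.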

How the results depend on the processing

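The calls of both Klf2 probes held in every alternative in which they were measured, up to an adjusted p of 0.0394 by limma. The Klf10 mean response turned to -0.21 and passed without the 1 h sample, and was 0.60 without the 4 h sample. Each of these fits has 1 residual degree of freedom. Means near 0 of the dimmer probes of Klf3, Klf7, Klf9 and Klf13 also changed sign under some alternatives and did not pass there, as with Klf3 at 0.08 without replicate 2 and Klf7 at 0.05 without replicate 1. Klf6 at 1 h was at -0.13 with median centring, against 0.02. The count of Kruppel-like factor probes with a higher mean response was 3 with the replicate block and 1 to 2 when a replicate or a time was left out. The count with a lower one was 1 with the scanner's processed signals, where Klf3, Klf4 and Klf13 missed the threshold, 6 with median centring, which added Klf6 and Klf7, and 1 to 7 when a replicate or a time was left out. Slope calls numbered 3 lower with no background correction, 1 higher and 2 lower with median centring, and 1 higher (the dimmer Klf15 probe) and 3 lower (Klf6 and both Klf7 probes) with a trended and robust variance model. At 1 h 0 probes were 2-fold higher with median centring, and 1, the dimmer Klf15 probe, was 2-fold lower with the scanner's processed signals, which also gave 1 probe 2-fold lower at 1 h than at 4 h. Over all probes the slope test called 60 rising and 74 falling, 0 and 0 with offset 16 or the processed signals, 236 and 283 with no background correction, 278 and 212 with median centring, and 335 and 345 with the trended model, and 17 and 30 without replicate 1 and 8 and 13 without replicate 2. The mean response called 3214 up and 3472 down, 1033 and 933 with the processed signals, 1680 and 7452 with median centring, 4538 and 5901 without replicate 1, 6268 and 5032 without replicate 2, and 927 and 861 without the 2 h sample. The causes of these changes were not tested. Each array lay on a slide of its own and the headers gave no scan date, so slide or scan as a block was not run. With 3 samples and untreated RNA as the common comparison, small means such as those of Klf3, Klf4 and Klf13 rest on few values, and probes near the negative controls, as for Klf15, have no settled size.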
